A study of Mus musculus with 4 samples.

Results

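Complement is a set of plasma and membrane proteins that marks and lyses targets. Its classical, lectin and alternative pathways are protease cascades that meet at the cleavage of C3, and membrane and soluble regulators keep that step off the body's own cells. The liver makes most of the plasma proteins, while epithelial cells, including those of the alveolus, make some of them locally and protect their own surface with regulators. Here 9 genes of this system were followed in the MLE12 transcriptome: the central component (C3), the convertase subunits (C2 and Cfb), a lectin pathway protease (Masp1), the membrane regulators (Cd55, Cd46 and Cd59a) and the soluble regulators (Serping1 and Clu). They were taken by symbol, and all 9 have a value among the 17906 genes with one. Of the 9 members, 4 had a mean level of at least 20 normalized reads, and Serping1 lay just under it at 19.9. Over all genes with a value, 30.9% had a level below that of Serping1.

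MLE12 is a mouse lung epithelial line that keeps some traits of alveolar type II cells and was made by driving a viral oncogene from a surfactant promoter. The series holds RNA-seq of 2 control and 2 lamin B1 knockdown (Lmnb1 KD) libraries from these cells, all grown in serum with 2 µg/ml puromycin. The study silenced lamin B1 with lentiviral shRNA, and the labels do not say which shRNA these libraries received. The table used here carries 1 level for each gene, the authors' mean over all 4 libraries, and the result columns of the authors' comparison of KD with control, which were not used. The authors' mean proved to be a sum of whole reads in 4 fixed steps, 1 for each library. Reads per library could be read back from it for all 8397 genes with a mean level under 200, each with a single set of whole numbers. The 4 libraries so obtained carry no label. They are called libraries 1 to 4 in order of size factor (1.074, 1.055, 0.953 and 0.934), a number that scales each library for its depth. No label places any library in the control or the KD group. Placing them by the authors' comparison, or by genes that the paper reports as changed, was not tried. For this reason no effect of lamin B1 loss is given, no replicate SD and no test. Intervals are exact 95% Poisson intervals of the reads. They cover counting error only and not variation between cultures. Reads without molecular identifiers are not independent molecules, so the intervals may be too narrow even for counting error.

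The median level over the genes was 277 normalized reads, from 1.16 to 179696. Lmnb1, the targeted gene, had a mean level of 3946 over control and KD libraries together, and its reads per library could not be recovered at that level. Of 8 type II markers 4 had a level of at least 20, Sftpb at 6189, Nkx2-1 at 2667, Abca3 at 2546 and Sftpc at 893. Napsa stood at 11.2 and Sftpa1 at 1.57, and Sftpd and Lamp3 have no value here. Of 4 epithelial markers Krt8 was at 9525, Cdh1 at 1463, Epcam at 77.4 and Krt18 at 12.9. Of 6 leukocyte markers 2 had a value, Cd68 at 51.4 and Itgam at 7.95, of 3 endothelial markers 2 had one (summed level 21.4) and of 4 liver markers 0. Of 4 fibroblast markers 2 had a level of at least 20, Dcn at 12256, which makes up nearly all of their summed level of 12405, and Col1a1 at 131, while Pdgfrb was at 13.6 and Col1a2 at 4.34. In bulk RNA, fewer cells of a type and less RNA per cell cannot be told apart.

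Clu had no recovered reads per library. Among the other members with more than a few reads, C3, the protein on which all pathways converge, differed most between libraries. The gene (ENSMUSG00000024164) spans 57203970 to 57228136 of chromosome 17 in GRCm38, minus strand, and its longest transcript has 41 exons. It had 70 reads in library 1 and 85 in library 2, against 258 in library 3 and 269 in library 4. In normalized reads these are 65.2 (interval 50.8 to 82.3), 80.6 (64.4 to 99.7), 271 (239 to 306) and 288 (255 to 325). Libraries 3 and 4 were thus high and libraries 1 and 2 low, and no interval of one pair reached the other pair. The ratio of the highest to the lowest library was 4.42 (95% interval 3.39 to 5.84). Both were picked by rank, so this ratio is at least 1 for any gene. Among the 2850 genes with a mean level between 20 and 200, 28.1% had a ratio of at least 2 and 97.2% had a smaller ratio than C3. Of the 875 genes between 100 and 200, where C3 lies with a mean of 176, 11.7% had a ratio of at least 2.

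Cd55, which encodes decay-accelerating factor, a membrane-anchored protein that takes C3 convertases apart, was the other member between 20 and 200, and both members passed 2-fold. Its reads were 119 in library 1, 67 in library 2, 52 in library 3 and 46 in library 4. The normalized values were 111 (interval 91.8 to 133), 63.5 (49.2 to 80.7), 54.6 (40.8 to 71.6) and 49.3 (36.1 to 65.7). Library 1 stood above the other 3, whose intervals overlap one another. The highest library was 2.25 times the lowest (95% interval 1.59 to 3.23), and 80.5% of the genes between 20 and 200 had a smaller ratio. Without library 1 the ratio was 1.29, so the spread of Cd55 rests on that library. Cd55 (ENSMUSG00000026399) spans 130439027 to 130462744 of chromosome 1, minus strand. The antisense gene Gm16083 overlaps 2.1% of its exon bases, and 15.0% of its longest transcript is shared with the neighbouring copy Cd55b at 95% identity or more.

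The promoters of C3 and Cd55 are shown because these are the members with a mean level between 20 and 200 whose highest and lowest libraries had intervals apart. RefSeq promoters (GRCm38.p6) were at hand for 4 of the 9 members, the others being Cd46 and Cd59a. Each runs from 250 bases before to 50 bases after the start of the gene, on the minus strand, at chr17:57228087-57228386 for C3 and chr1:130462695-130462994 for Cd55.
C3: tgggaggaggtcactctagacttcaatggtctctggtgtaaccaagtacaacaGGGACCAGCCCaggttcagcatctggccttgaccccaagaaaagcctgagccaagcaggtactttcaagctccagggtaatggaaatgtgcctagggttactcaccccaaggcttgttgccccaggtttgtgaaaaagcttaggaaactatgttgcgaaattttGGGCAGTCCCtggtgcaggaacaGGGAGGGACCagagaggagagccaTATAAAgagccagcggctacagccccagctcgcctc
Cd55: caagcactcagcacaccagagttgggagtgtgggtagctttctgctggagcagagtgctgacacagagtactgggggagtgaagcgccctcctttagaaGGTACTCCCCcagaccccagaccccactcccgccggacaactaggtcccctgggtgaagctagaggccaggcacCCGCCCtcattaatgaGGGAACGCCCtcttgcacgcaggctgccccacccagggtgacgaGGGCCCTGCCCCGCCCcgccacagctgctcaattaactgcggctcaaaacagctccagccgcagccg
Capitals mark every match on either strand to 5 motifs. The core promoter motifs searched were TATAAA, the box bound by TBP, the GC box motif written GGGCGG, and the box named CCAAT. The others were the NF-kB frame, a run of 3 G and a run of 2 C with any 5 bases between them, and the interferon response frame, 2 copies of GAAA with any 2 bases between them. Where matches overlap, their capitals run together. The C3 window holds TATAAA, which 13.6% of the 32851 promoters hold, starting at base 15 of the annotated gene. It also holds matches to the NF-kB frame, as do 50.8% of all promoters. The Cd55 window holds that frame and the GC box, the latter in 35.7% of promoters. Neither window holds CCAAT (37.4% of promoters) or the interferon response frame (3.44%). The windows differ in base composition, with 53.3% G and C for C3 and 63.3% for Cd55, against a median of 52.7% over all promoters. A match is a description of these letters and not a measured site.

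**Figure D1:**
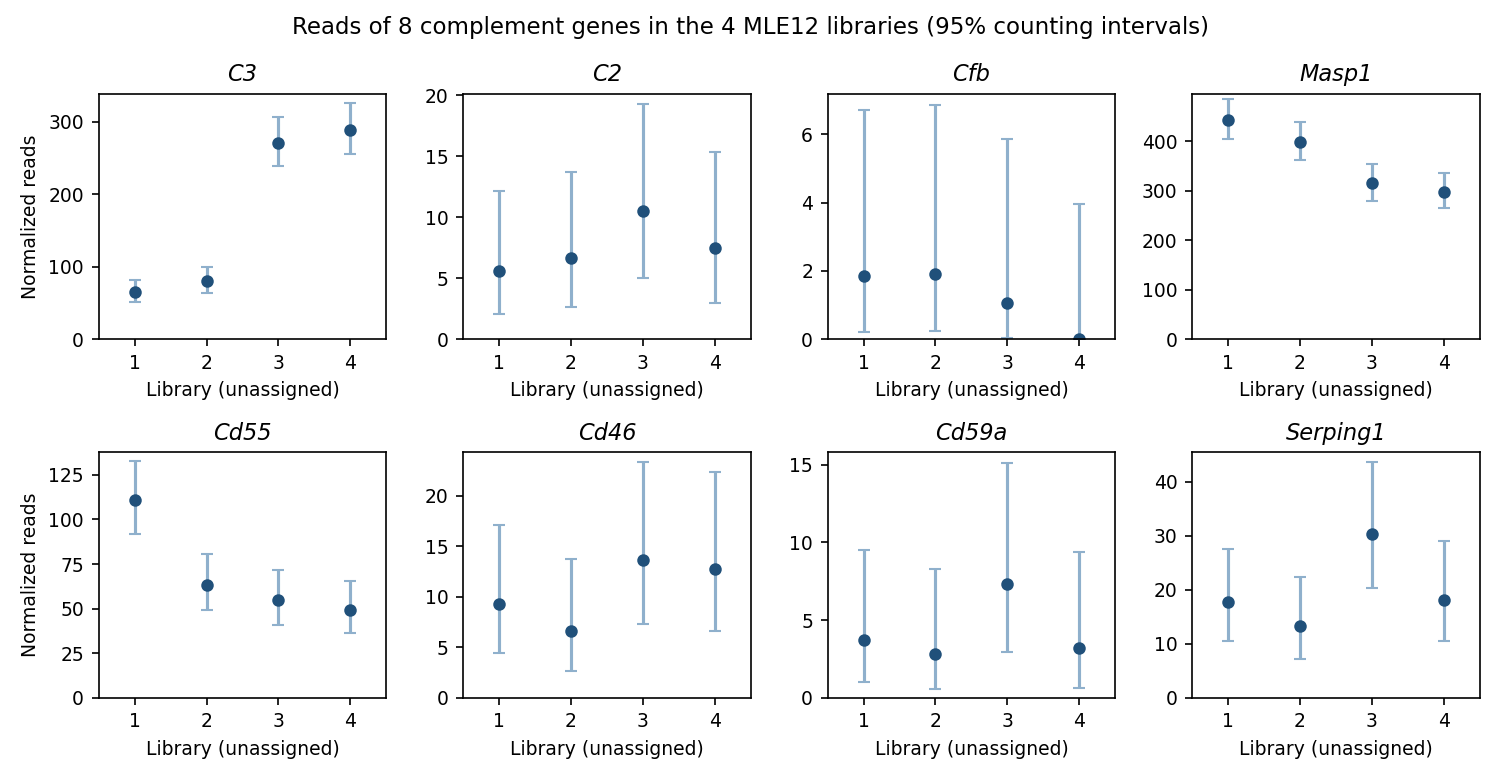
Normalized reads (reads divided by the size factor) of 8 members in the 4 unassigned libraries, with exact 95% Poisson intervals as bars; each panel has its own axis from 0. C3 sits at 65.2 and 80.6 in libraries 1 and 2 and at 271 and 288 in libraries 3 and 4, Cd55 is highest in library 1 at 111, and the intervals of C2, Cfb, Cd46, Cd59a and Serping1 overlap throughout.

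Masp1 encodes a serine protease that travels with the recognition molecules of the lectin pathway and activates MASP-2 and C2. It was the most abundant member after Clu, at a mean level of 363. Its mean lies above the levels at which recovery was tested on simulated data, and is matched by 2 sets of whole reads. In one set every library has reads, 476, 420, 300 and 278 in libraries 1 to 4, and this set is used. In the other, library 4 would have 0 reads beside 608 in library 3, and 0 of the 875 genes between 100 and 200 had a library at 0. The normalized values of the set used were 443 (interval 404 to 485), 398 (361 to 438), 315 (280 to 353) and 298 (264 to 335). In this set libraries 1 and 2 were above libraries 3 and 4, the reverse of the order of C3, with intervals apart between the pairs. The spread was smaller than for C3 or Cd55, a ratio of 1.49 (95% interval 1.28 to 1.73). Masp1 (ENSMUSG00000022887) spans 23449417 to 23520815 of chromosome 16, minus strand, and the gene gives alternative proteins from its 4 annotated transcripts, which a level per gene does not separate.

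The convertase subunits were close to the limit of detection. C2, the subunit that C1s or MASP-2 cleaves for the classical and lectin C3 convertase, had 6, 7, 10 and 7 reads in libraries 1 to 4. Cfb, factor B of the alternative convertase, had 2, 2, 1 and 0 reads. This is 5 reads in total, the smallest total of any gene whose reads were recovered. The exact interval of the 0 reads in library 4 ends at 3.95 normalized reads. For neither gene was a difference between libraries detectable at this depth: the highest over lowest ratio of C2 was 1.88 with an interval from 0.619 to 6.29. The genes are neighbours on chromosome 17, both on the minus strand, with Cfb (ENSMUSG00000090231) at 34856374 to 34862518 and C2 (ENSMUSG00000024371) at 34862604 to 34898265. A further gene model, Gm20547, runs along the same strand and covers 79.5% of the exon bases of Cfb and 42.8% of those of C2. It has no value in the table used here. The opposite-strand gene Zbtb12, at a mean level of 498, overlaps 4.16% of the exon bases of C2, whose mean level was 7.55. No source used here says how reads on 2 overlapping genes were counted, or whether strand was used. The part of either overlapping gene in these levels was not tested. Both levels are therefore uncertain.

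The other membrane regulators were rare. Cd46, a cofactor for the cleavage of C3b that in the mouse is known mainly from testis, had 10, 7, 13 and 12 reads. Cd59a, whose product blocks the membrane attack complex, had 4, 3, 7 and 3. The ratio of the highest to the lowest library was 2.06 for Cd46 (95% interval 0.762 to 6.09) and 2.58 for Cd59a (0.59 to 15.5), so counting error alone covers these differences. Without library 3 the ratio of Cd59a was 1.31. Exons of Cd46 overlap those of the opposite-strand transcript A330023F24Rik over 14.2% of their bases. No source used here says that strand entered the authors' counting, and without it reads of the pair cannot be told apart. Cd46 (ENSMUSG00000016493) spans 195036826 to 195092249 of chromosome 1, minus strand. Cd59a (ENSMUSG00000032679) spans 104095801 to 104115354 of chromosome 2, plus strand.

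Of the soluble regulators, one was scarce and the other among the most abundant transcripts of the cells. Serping1, which encodes the C1 inhibitor that inactivates C1r, C1s and the MASPs, had 19, 14, 29 and 17 reads, or 17.7, 13.3, 30.4 and 18.2 normalized reads. Library 3 was highest, but its interval (20.4 to 43.7) overlaps that of the lowest, library 2 (7.26 to 22.3). Without library 3 the ratio of highest to lowest was 1.37, against 2.29 with it, whose interval of 1.17 to 4.7 covers neither the choice of the extremes nor variation between cultures. The gene (ENSMUSG00000023224) spans 84765387 to 84775444 of chromosome 2, minus strand. Clu encodes clusterin, a secreted chaperone that also binds the terminal complex and keeps it out of membranes. Its mean level was 44853, or rank 11 of 17906. At this level many sets of whole reads give the same mean, so its values per library were not recovered and its spread is unknown. Clu (ENSMUSG00000022037) spans 65968483 to 65981547 of chromosome 14, plus strand.

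Levels of different genes were compared per kb of the longest protein-coding transcript. Clu, at 24781 normalized reads per kb, was far above Masp1 at 68, C3 at 34.3, Cd55 at 27.5 and Serping1 at 11.3. C2 at 2.86, Cd59a at 2.37, Cd46 at 1.69 and Cfb at 0.437 followed. The median over the 17683 genes with a length was 99.4 per kb, so 8 of the 9 members were below it. Over single libraries, the range of C3 (12.7 to 56.1 per kb) overlapped those of its neighbours Masp1 (55.7 to 82.9) and Cd55 (19.4 to 43.7). Serping1 (7.51 to 17.2) lay below Cd55 and above C2 (2.11 to 3.97) in every library. The ranges of C2, Cd59a (1.58 to 4.07) and Cd46 (1.06 to 2.17) overlapped, and that of Cfb ended at 0.689.

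**Figure D2:**
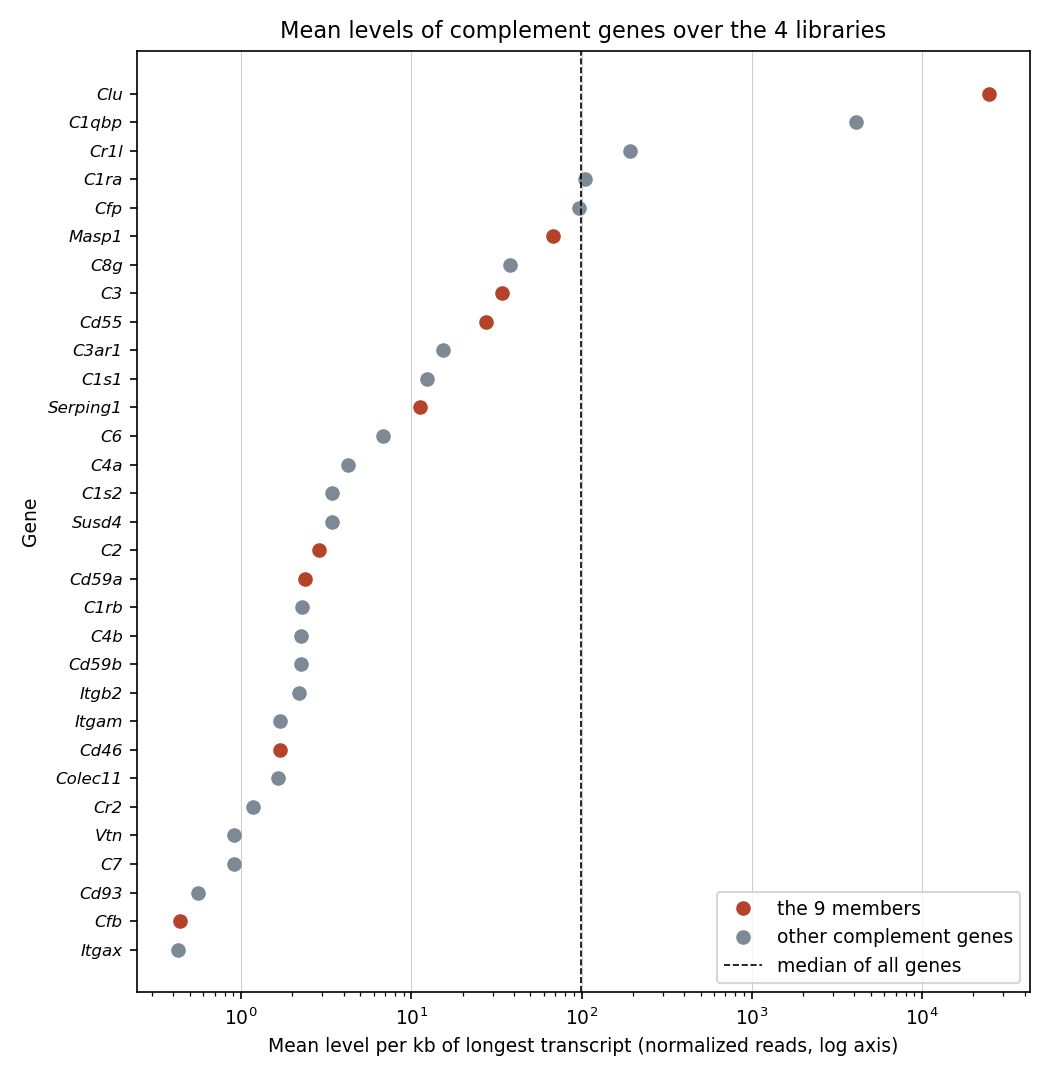
Mean level over the 4 libraries per kb of longest transcript (log axis) for the 9 members (red) and the 22 other complement genes with a value (grey), ordered by level; the dashed line is the median of all genes, 99.4. Clu at 24781 stands far to the right of the line, and the other 8 members lie to its left.

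Of 46 other complement genes in a list drawn up for comparison, 22 had a value and 8 a mean level of at least 20. Their median over those with a value was 9.66, against 19.9 for the members and 277 for all genes. By comparison, 30.9% of all genes with a value lay below the level of Serping1, 19.9. Members and list were chosen with earlier results of these data known, and genes without a value do not enter the medians. The difference between the medians was not tested. In the classical pathway 6 of 9 had a value. The recognition chains C1qa, C1qb and C1qc have none here, whereas C1ra, a protease of the C1 complex, was steady at 281, 320, 318 and 330 normalized reads. Its mean of 312 was given by 1 set of whole reads, but lies above the levels at which recovery was tested on simulated data. C1s1, the other C1 protease, ranged from 15.2 in library 2 to 56.8 in library 4, a ratio of 3.74 (95% interval 2.11 to 7.01). C1ra shares 81.5% of its transcript with C1rb and C1s1 89.7% with C1s2, so their reads may be split between copies. C4a had a mean of 22.9 and shares 99.9% of its transcript with C4b. In the lectin pathway 1 of 7 had a value, Colec11 at 2.33, so Masp1 was present where the collectins and ficolins of the list were scarce or without a value. Of the alternative pathway Cfp, properdin, stood at 132, 139, 171 and 188 in libraries 1 to 4. In the terminal pathway 3 of 7 had a value, the highest being C8g at 43.8.

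Regulators and receptors of the list filled in the rest. Of 12 regulators 5 had a value. Cr1l, which encodes Crry, the broadly expressed C3b regulator of the mouse, had a mean of 532, or 192 per kb, above Cd55, Cd46 and Cd59a on that scale. Cr1l shares 46.0% of its transcript with the copy Crry-ps, so reads may be split between the copies. C1qbp, which encodes a mainly mitochondrial protein that binds C1q, had 4833. Of 9 receptors 6 had a value, but C3ar1, the C3a receptor, was the only one above a mean of 20. It had 68.9, 46.5, 78.7 and 71.7 normalized reads. Genes without a value here were not analysed.

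**Figure D3:**
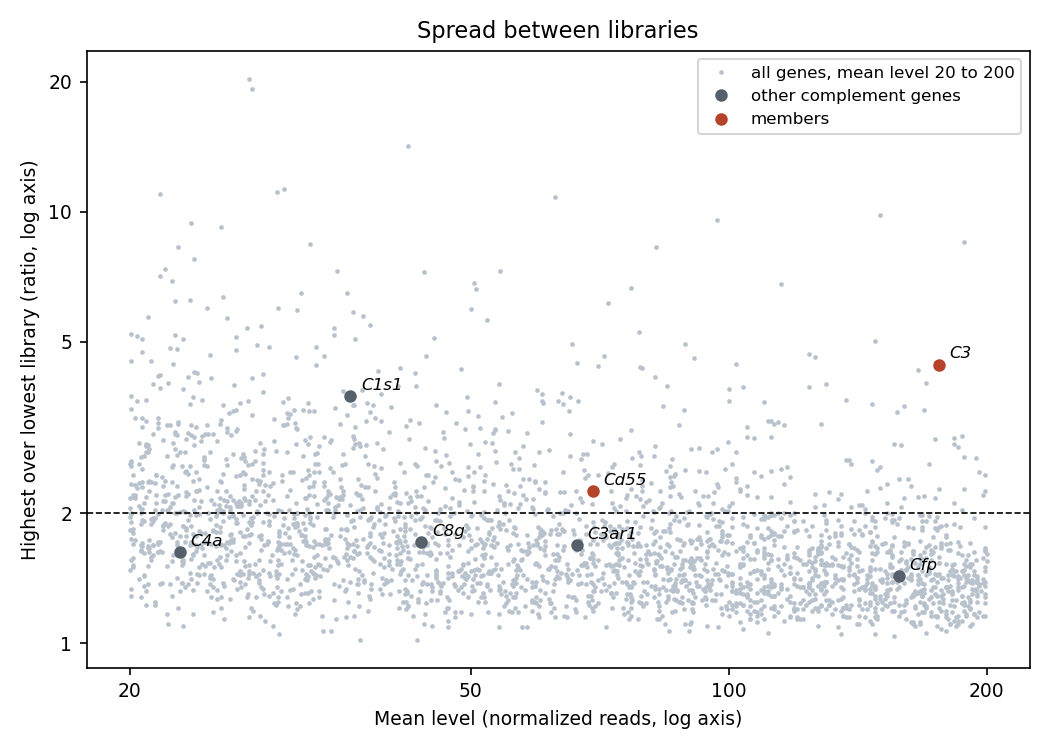
Ratio of the highest to the lowest library against mean level, both on log axes, for the 2850 genes with a mean level of 20 to 200 (grey), with members in red, other complement genes in dark grey and a dashed line at 2-fold. C3 at 4.42 and Cd55 at 2.25 lie above the line, as does C1s1, while C4a, C8g, C3ar1 and Cfp lie under it.

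Intervals of the highest and the lowest library were apart for C3, Cd55 and Masp1 and overlapped for C2, Cfb, Cd46, Cd59a and Serping1. They were apart for 46.1% of all genes between 20 and 200, a range that holds only C3 and Cd55 of these members. Masp1 lies above it and the members with overlapping intervals lie below it, so their count is not read against that share. Which of these gaps follow the knockdown cannot be told apart from other differences between the libraries with the values used here.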

How the data were processed

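Members and gene lists were chosen with earlier results of these data known. Polyadenylated RNA of 2 control and 2 Lmnb1 KD samples was sequenced by Ion Torrent. The submitters' notes name STAR, DESeq2 and mm10 (the same assembly as GRCm38), and the authors trimmed reads with Reaper; no source used here gives their versions, the counting program or its use of strand. The deposited signal used is the authors' mean over the 4 libraries of read counts divided by size factors, given to 12 significant digits. The table also holds the fold changes and p-values of the authors' comparison, which were not used; it has 0 columns of single libraries.

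The lowest value is 5 reads of 1 library, and the next ones gave the value of 1 read in each library. For each gene under a mean level of 200, and each listed complement gene under 600, all sets of 4 whole numbers that give its mean within rounding were then listed. The step was tested on simulated data at levels under 200. The simulated size factors did not lie in close pairs as those found here do, so the test does not cover that spacing. Depth per library is known only as the size factor. The planned test of KD against control was not run, because no value carries a sample label. Poisson intervals are at 95%, and the ratio interval is the exact binomial one. Named genes are the members, Lmnb1 and the listed complement genes at a mean level of at least 20; others were named after their values were seen, and 1 gene of the list is not reported here and is left out of its counts. List genes under older symbols were found by identifier. Positions and lengths are from GENCODE M21, and near copies from BLAST 2.17.0 (95% identity, at least 100 bases). Python 3.11.15, numpy 2.4.6, scipy 1.17.1 and pandas 2.3.3 were used. Alternatives were other scalings, filters, folds and lengths, and leaving out each library.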

Additional observations from a re-analysis of the deposited data

How the results depend on the processing

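No paired analysis was possible because the recovered libraries carry neither a group nor a replicate number. Leaving out each library in turn, the ratio of the highest to the lowest library ranged from 1.29 (without library 1) to 2.25 for Cd55 and from 3.57 to 4.42 for C3. Without library 3 it fell from 2.58 to 1.31 for Cd59a and from 2.29 to 1.37 for Serping1, so these ratios rest on that library, within their wide counting intervals. For C2, Cd46 and Masp1 it moved by less than 1.5 times. Within the main interval were also the ratios of reads without scaling and of reads scaled by the summed reads of genes under a mean level of 200, both chosen after seeing the data. For C3 these were 3.84 and 4.26, and for Cd46, which moved below 2-fold, 1.86 and 1.91. Scaling by total reads was not run, since totals cannot be recovered. The share of genes past the fold was 28.1%, and became 59% from a mean level of 2 on, 64.9% with no lower limit, 62.7% at 1.5-fold and 8.77% at 3-fold. At 3-fold C3 remained above the line and Cd55 did not. With the shortest transcript C3 stood before Masp1 in level per kb and C2 before Serping1. Under 20 reads per library, differences as large as 2-fold lay within counting error for C2, Cd46 and Cd59a.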

Other observations

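Between a mean level of 20 and 200, libraries 3 and 4 were the 2 highest for 936 of 2850 genes (32.8%) and libraries 1 and 2 for 671 (23.5%). Each of the other 4 pairs was the highest for 275 to 362 genes. Among the 801 genes past 2-fold, libraries 3 and 4 were the highest pair for 376 (46.9%) and libraries 1 and 2 for 224 (28%), and the other pairs for 29 to 65. The libraries thus fell into the pairs 1 with 2 and 3 with 4, which are also the pairs closest in size factor. No label ties a pair to control or KD cells. C3 was highest in libraries 3 and 4, with 65.2, 80.6, 271 and 288 normalized reads in libraries 1 to 4. Masp1 was highest in libraries 1 and 2, with 443, 398, 315 and 298, in the set of reads used for it. Below the mean level of 20, Susd4, a membrane protein with complement control domains, had 20, 11, 5 and 6 reads in libraries 1 to 4, and C4b had 5, 16, 8 and 19. Both genes were named after their values were seen. Intervals of the highest and the lowest library overlapped for Susd4 and were apart for C4b. C4b was highest in libraries 2 and 4 and followed neither pair. It shares 100% of its transcript with C4a, so its reads may be split between copies.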
